A study of Mus musculus with 24 samples.

Results

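The loci of 38 TGF-beta and BMP genes were followed in chromatin accessibility data (ATAC-seq) from mouse epidermal stem cells (EpdSCs) in which the hair follicle factor SOX9 was switched on. Every peak from the 12 deposited peak lists was merged into 1 set of 134385 regions, joining peaks that shared at least 1 bp, and a region belonged to a gene when it overlapped the gene body extended by 20 kb on each side. This rule gave 528 regions in the windows of the 38 genes, and 99068 regions in the windows of 21951 protein-coding genes, which served as the background. Of the 528 regions, 395 held a peak in at least 1 skin list, 241 held peaks in both skin and culture, 154 in skin alone and 133 in culture alone.

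The skin samples came from male CD1 mice of the genotype K14rtTA; TRE-myc-Sox9, in which doxycycline (DOX) turns on MYC-tagged SOX9 in cells that use the keratin 14 promoter. EpdSCs were sorted from back skin (CD31, CD45, CD117 and CD140a negative, CD49f high, CD34 negative, Ly6A high) on day 0 (D0, postnatal day 21) and after 1 (W1, day 28), 2 (W2, day 35), 6 (W6, day 63) and 12 weeks (W12) of DOX. The W12 skin had been grafted. By the methods it came from newborn pups, was placed on immunocompromised (Nude) female hosts and healed for 21 days before DOX. Grafting, host, donor age and time therefore cannot be told apart there. The D0 mice carry both transgenes too. Cultured keratinocytes from back skin were compared without DOX (noDOX) and with DOX at 1 µg per ml in 6 arms. WT-SOX9 expressed the intact factor. ΔHMG-SOX9 lacked the HMG domain that binds DNA, and ΔTA-SOX9 lacked the domain that activates transcription. AFOS is a FOS derivative that pairs with JUN and keeps AP1 off DNA, and it was used alone and together with SOX9 (SOX9+AFOS). The last arm, SOX9+ARID1a, added ARID1A, which belongs to the SWI/SNF remodelling complex, to SOX9. In WT-SOX9, ΔHMG-SOX9 and ΔTA-SOX9, 1 of the 2 samples each was labelled as day 3. All culture arms rest on the K14rtTA driver. By the methods, the 3 SOX9 forms were delivered by lentivirus to cells that carry only this driver, and lentivirus with AFOS or ARID1A was given to cells with the driver alone or with the TRE-mycSOX9 transgene too, so that the SOX9 of SOX9+AFOS and SOX9+ARID1a need not share its source with that of WT-SOX9 and noDOX. The noDOX list carries the wild-type SOX9 label and is the control of all 6 arms.

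Each group holds 2 samples, 24 in all, but the authors pooled both before calling peaks, so every group is represented by 1 list of 49458 to 75956 peaks. No replicate error could be computed and no test was run. Shares of regions are given with Wilson 95% intervals, which cover counting error only, beside the share over all protein-coding windows. Peak height is given as the authors' normalized peak score, of at least 3 in every list, with sums of 925672 to 996710 per list. The lists were not equally sensitive: from D0 to W12 their minimum −log10 q ran 14.5, 9.37, 4.21, 5.74 and 10.1, so a region absent at D0 and present at W2 may have been above the W2 minimum and below that of D0.

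A transgene may appear as peaks confined to exons past the first, since a cDNA construct has no introns. Such a Sox9 peak was missing from the list labelled W1 and was in all other skin lists, D0 included, with highest scores of 13.5, 15.1, 9.22 and 8.84 in time order. In culture noDOX had one as well (3.71), SOX9+AFOS (highest 5.11) and SOX9+ARID1a (4.14) had them too, and WT-SOX9, ΔHMG-SOX9, ΔTA-SOX9 and AFOS had none, so that this mark was missing in the 3 arms with a lentiviral SOX9 form. Changes that use W1 are also given from D0 to W2 directly. Arid1a had 12 such peaks in SOX9+ARID1a, 8 in the list labelled AFOS, 7 in the list labelled SOX9+AFOS, 1 each in noDOX, ΔHMG-SOX9 and ΔTA-SOX9, and 0 elsewhere. The arms labelled AFOS and SOX9+AFOS are described with that mark in mind. All 6 basal epidermal markers had a peak within 1 kb of a start site in all 12 lists and all 4 immune markers had none. Of the 5 fibroblast markers, Pdgfra had a peak in all 12 lists, Col1a1 in all but SOX9+ARID1a, and Col1a2, Col3a1 and Lum in none. Of the 5 hair follicle stem cell markers, Lhx2, Nfatc1 and Sox9 had one in all 5 skin lists, D0 included, and Lgr5 and Cd34 had one in skin only at W6 and W12. Of the 4 melanocyte markers, Dct and Pmel had one in all skin lists and Kit and Tyr in none, and of the 4 endothelial markers 0 to 3 had one in a skin list. The part of other cells in the results below was not tested.

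TGF-beta, activin and BMP ligands are secreted dimers that bring type II and type I serine/threonine kinase receptors together. The receptors phosphorylate SMAD2 and SMAD3 (TGF-beta and activin) or SMAD1, SMAD5 and SMAD9 (BMP), which join SMAD4 and enter the nucleus. In skin, BMP signalling is known for holding hair follicle stem cells quiescent, and TGF-beta signalling for restraining epidermal growth and for counteracting BMP at the start of the hair cycle. LTBP1, a latent TGF-beta binding protein, stores the ligand in the matrix. Follistatin, noggin and gremlin trap ligands, SMAD6 and SMAD7 block the receptors, and the ID genes are classic BMP targets.

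The sequences of 10 regions show what opened and closed. Each is the central 200 bases of its region on the plus strand of GRCm38, with matches to the letters searched in capitals. On both strands, SOX factors were searched as ACAATAG and also as ACAATGG, AP1 was searched as TGACTCA and also as TGAGTCA, the GATA factors as AGATAA, RUNX factors as TGTGGT, the SMAD palindrome as GTCTAGAC, and the GC-rich SMAD1/5 site as GGCGCC. The first 5 are among the highest regions of the classes described below. The last 5 were added after their values were seen: the next highest Tgfb2 region shared by skin and culture, the highest region opened by WT-SOX9, the Smad3 region closed by WT-SOX9, and 2 regions that hold the SOX letters.
Tgfb2 chr1:186674565-186674764: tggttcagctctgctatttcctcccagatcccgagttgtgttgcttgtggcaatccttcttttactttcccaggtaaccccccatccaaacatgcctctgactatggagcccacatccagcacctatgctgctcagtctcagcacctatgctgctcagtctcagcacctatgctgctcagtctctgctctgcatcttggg
Tgfb3 chr12:86047529-86047728: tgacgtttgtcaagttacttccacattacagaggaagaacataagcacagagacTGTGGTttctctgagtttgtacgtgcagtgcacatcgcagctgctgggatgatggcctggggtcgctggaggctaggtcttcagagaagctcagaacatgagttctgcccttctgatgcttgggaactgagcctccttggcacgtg
Ltbp2 chr12:84805603-84805802: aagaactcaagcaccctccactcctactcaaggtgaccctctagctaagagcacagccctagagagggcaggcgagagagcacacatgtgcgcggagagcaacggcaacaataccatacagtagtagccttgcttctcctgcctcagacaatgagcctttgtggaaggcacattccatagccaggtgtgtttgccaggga
Acvr2a chr2:48877701-48877900: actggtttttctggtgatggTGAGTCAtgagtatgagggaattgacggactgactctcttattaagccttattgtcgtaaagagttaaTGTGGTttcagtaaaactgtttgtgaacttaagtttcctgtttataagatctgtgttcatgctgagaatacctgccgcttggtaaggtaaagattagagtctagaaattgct
Tgfbr3 chr5:107279442-107279641: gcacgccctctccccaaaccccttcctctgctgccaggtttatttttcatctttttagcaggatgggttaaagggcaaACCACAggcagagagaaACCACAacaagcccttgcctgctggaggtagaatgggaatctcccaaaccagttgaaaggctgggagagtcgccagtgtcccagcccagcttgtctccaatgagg
Tgfb2 chr1:186641266-186641465: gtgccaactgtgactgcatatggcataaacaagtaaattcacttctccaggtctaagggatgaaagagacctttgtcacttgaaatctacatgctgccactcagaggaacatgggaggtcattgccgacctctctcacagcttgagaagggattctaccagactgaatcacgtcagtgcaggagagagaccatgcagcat
Bmp2 chr2:133547207-133547406: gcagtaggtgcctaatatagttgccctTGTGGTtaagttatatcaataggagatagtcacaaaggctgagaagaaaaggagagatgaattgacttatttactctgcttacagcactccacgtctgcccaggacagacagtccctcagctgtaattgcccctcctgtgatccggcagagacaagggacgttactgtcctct
Smad3 chr9:63698926-63699125: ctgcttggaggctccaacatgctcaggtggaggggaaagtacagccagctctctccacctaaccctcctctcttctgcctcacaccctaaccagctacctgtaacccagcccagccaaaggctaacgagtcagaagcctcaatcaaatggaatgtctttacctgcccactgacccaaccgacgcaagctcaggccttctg
Acvr1 chr2:58417826-58418025: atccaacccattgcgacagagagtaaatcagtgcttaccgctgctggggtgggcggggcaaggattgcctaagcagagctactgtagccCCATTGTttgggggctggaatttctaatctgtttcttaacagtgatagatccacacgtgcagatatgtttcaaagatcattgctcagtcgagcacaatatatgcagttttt
Bmpr2 chr1:59848185-59848384: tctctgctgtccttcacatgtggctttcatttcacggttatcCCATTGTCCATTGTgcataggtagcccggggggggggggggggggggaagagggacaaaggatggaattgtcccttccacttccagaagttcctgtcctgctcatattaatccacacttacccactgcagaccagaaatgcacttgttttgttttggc

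Of these, the lost Tgfb3 region and the opened Bmp2 region held 1 RUNX match each and the Tgfbr3 region held 2. The gained Acvr2a region held an AP1 and a RUNX match. The Acvr1 region, gained in skin, held 1 SOX match, and the Bmpr2 region, opened by WT-SOX9, held 2 in tandem. The Ltbp2 and Smad3 regions and both Tgfb2 regions held none of the letters in this window.

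Over the whole family, the loci changed about as often as other protein-coding loci. Of the 395 regions with a skin peak, 162 were present in all 5 skin lists (41.0%, interval 36.3 to 45.9%), against 41.4% in the background. From D0 to W1, 32 of 290 regions were gained (11.03%, background 11.3%) and 39 of 238 were lost (16.4%, interval 12.2 to 21.6%, background 11.7%), with the list labelled W1 on 1 side of the comparison. From W1 to W2, 67 of 297 were gained (22.6%, background 21.5%) and 52 of 231 lost (22.5%, background 23.3%). From W2 to W6, 80 of 282 were gained (28.4%, interval 23.4 to 33.9%, background 24.4%) and 19 of 246 lost (7.72%, background 10.1%). From W6 to W12, 32 of 221 were gained (14.5%, background 16.1%) and 55 of 307 lost (17.9%, background 17.0%). Without W1, from D0 to W2, 51 of 290 were gained (17.6%, background 19.2%) and 43 of 238 lost (18.1%, background 18.3%). The step with most gains, from W2 to W6 here and in the background, was not the same under other cut-offs. With lists of equal length it was W1 to W2 (24.7% against 15.7% from W2 to W6), as at a score of at least 5 (25.7% against 23.0%), and with the D0 minimum of −log10 q shared by all lists it was W6 to W12 (19.9% against 16.4%).

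**Figure D1:**
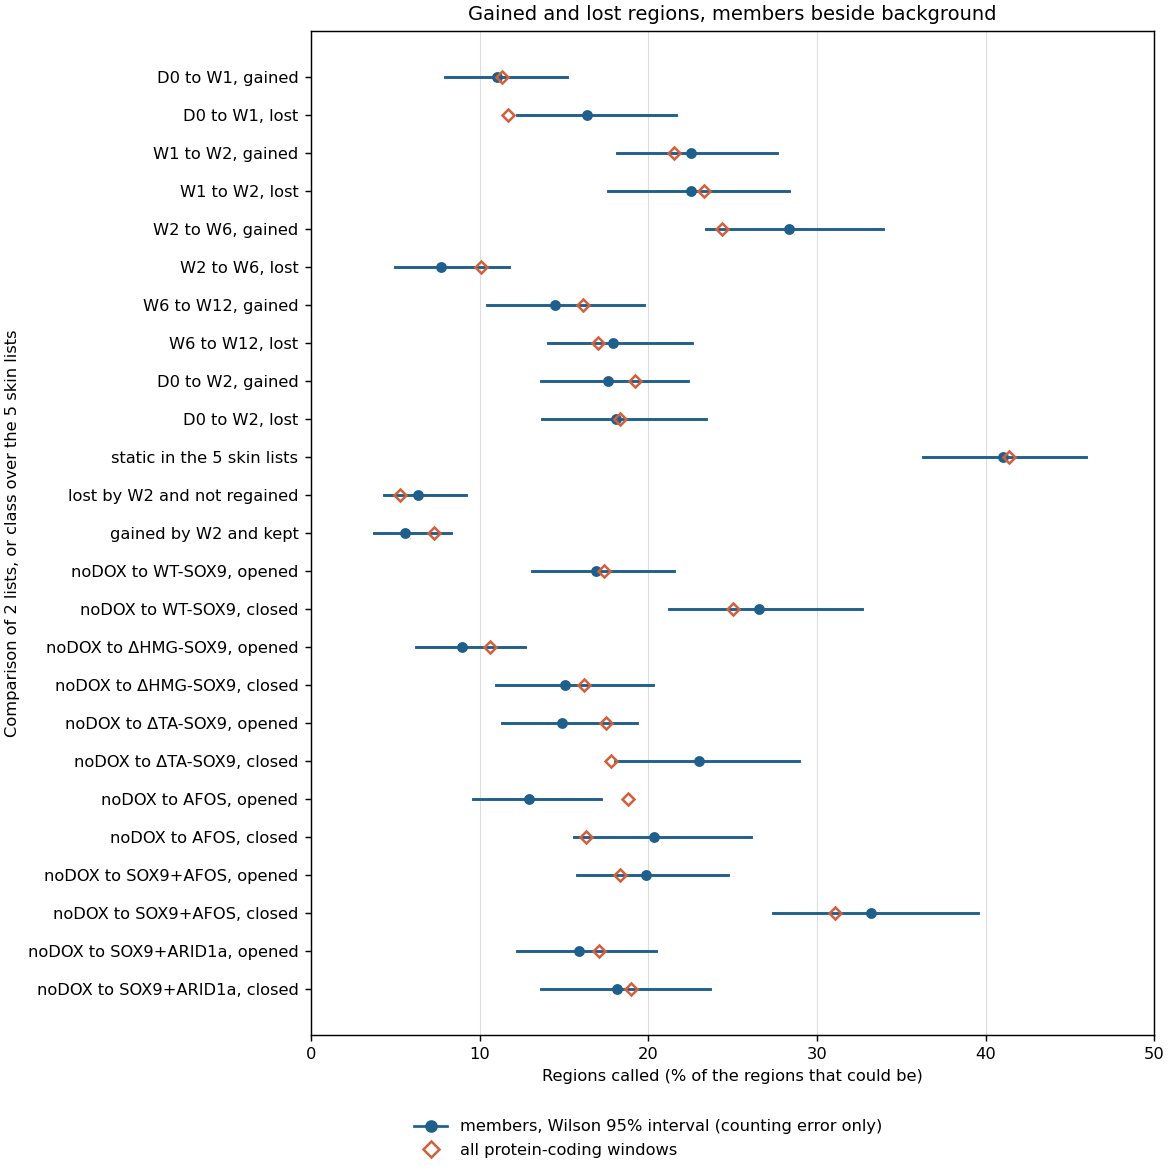
The plot shows, for each comparison of 2 lists or each class over the 5 skin lists, the percentage of member regions called (circles, with Wilson 95% intervals for counting error only) and the percentage over all protein-coding windows (diamonds). The background lies inside the interval in all but 3 comparisons: it is above it for regions opened in the list labelled AFOS, and just below it for regions lost from D0 to W1 and regions closed by ΔTA-SOX9.

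The family had 238, 231, 246, 307 and 284 regions with a peak in the skin lists from D0 to W12. Of the 38 genes, 23 had more regions at W6 than at D0, 9 had as many and 6 had fewer: Tgfb2, Tgfb3, Bmp4, Bmpr1b, Smad5 and Id2. Over the protein-coding windows with a region in either list, 51.5% had more and 15.4% fewer, and the W6 list is the longer one. At a score of at least 5 the direction held, with 22 member genes with more and 9 with fewer (43.0% and 16.9% of all windows). It turned with lists of equal length, where 13 had more and 16 fewer (27.7% and 33.5% of all windows). It also turned with the shared −log10 q minimum, where 8 had more and 21 fewer (14.9% and 49.1% of all windows). In culture the counts stayed between 211 and 233, and 12 genes had more regions in WT-SOX9 than in noDOX, 13 as many and 13 fewer (31.6%, 34.2% and 34.2%, against 28.8%, 39.2% and 32.1% of all windows with a region in either list).

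**Figure D2:**
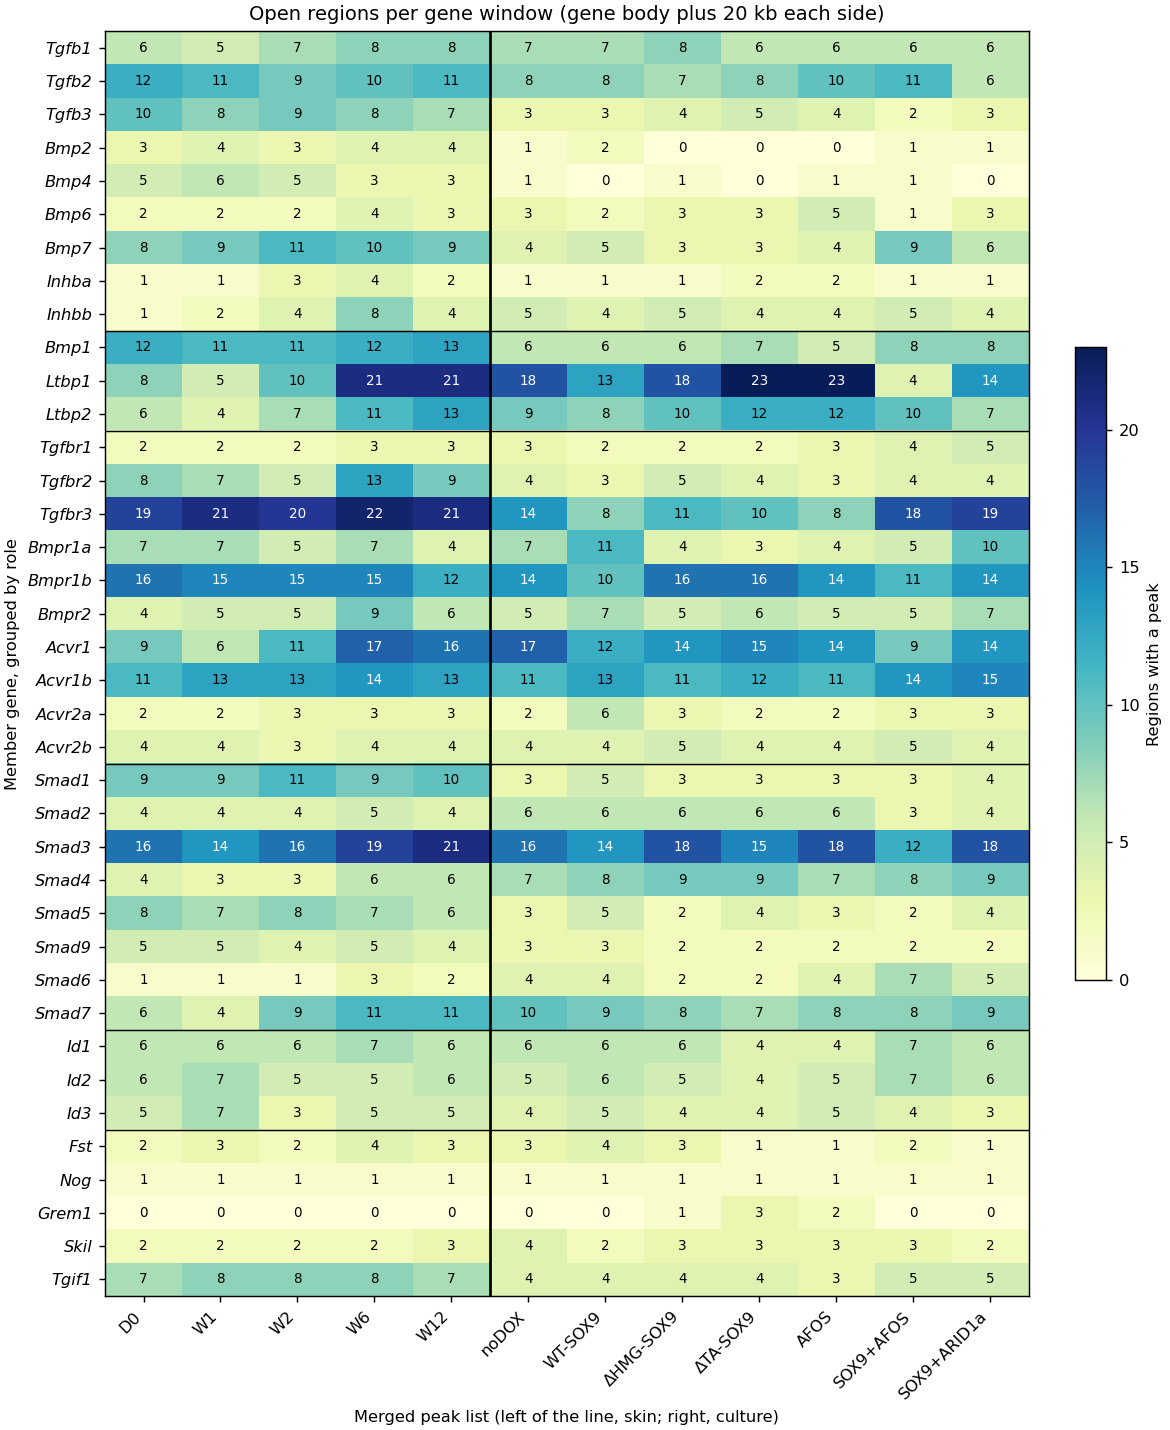
Each cell of the plot gives the number of regions with a peak in the window of 1 gene (rows, grouped by role) in 1 of the 12 lists (columns). Ltbp1 goes from 8 regions at D0 to 21 at W6 and W12, and Grem1 has no region in any skin list.

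A class of 25 regions was open at D0 and absent at W2, W6 and W12 (6.33% of 395, interval 4.32 to 9.18%, background 5.30%). They lay in 13 gene windows. Bmpr1b, a type I BMP receptor, held 6 of them, Tgfb2 held 4, Smad5 held 3, Tgfb3 and Tgfbr2 held 2 each, and Bmp1, Tgfbr3, Bmpr1a, Acvr2b, Smad1, Smad2, Smad3 and Smad4 held 1 each. None of the 25 had a peak in noDOX or WT-SOX9 culture (9.37% and 5.43% of the background regions of this class had one). Of the other lists, ΔHMG-SOX9 had 3 (12%, background 9.03%), ΔTA-SOX9 had 2 (8%, background 8.71%), AFOS had 1 (4%, background 9.82%), SOX9+AFOS had 5 (20%, background 10.4%) and SOX9+ARID1a had 2 (8%, background 11.3%). Few of them could therefore be followed in culture. At a score of at least 5, 10 of the 25 stayed in the class.

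A class of 22 regions had no peak in the D0 and W1 lists and a peak in each of the later 3 (5.57%, interval 3.71 to 8.29%, background 7.29%). They lay in 18 gene windows, with 2 each in Ltbp1, Ltbp2, Acvr1 and Smad3. When all 5 lists were held to the −log10 q minimum of D0, 1 of the 22 stayed in this class. With the lists cut to equal length 13 stayed, and at a score of at least 5, 5 stayed. Of the 22, 9 had a peak in noDOX (40.9%, background 37.4%), 11 in WT-SOX9 (50%, background 50.1%), 9 in ΔHMG-SOX9 (background 32.8%), 6 in ΔTA-SOX9 (27.3%, background 34.3%), 6 in AFOS (background 35.3%), 10 in SOX9+AFOS (45.5%, background 38.1%) and 11 in SOX9+ARID1a (background 49.99%). A region of either class was found in 23 of the 38 windows, of both classes in 8 (Tgfb2, Tgfbr3, Bmpr1b and 5 of the SMAD genes), and of neither in 15, namely all 3 ID genes, Bmp2, Bmp4, Bmp6, both inhibin beta genes, Tgfbr1, Smad6, Smad9, Fst, Nog, Grem1 and Skil. The same counts over all protein-coding windows were not computed, so these say nothing particular about the genes. Windows also differ in their number of skin regions, from 0 in Grem1, 1 in Nog and 3 in Skil to 30 in Tgfbr3.

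**Figure D3:**
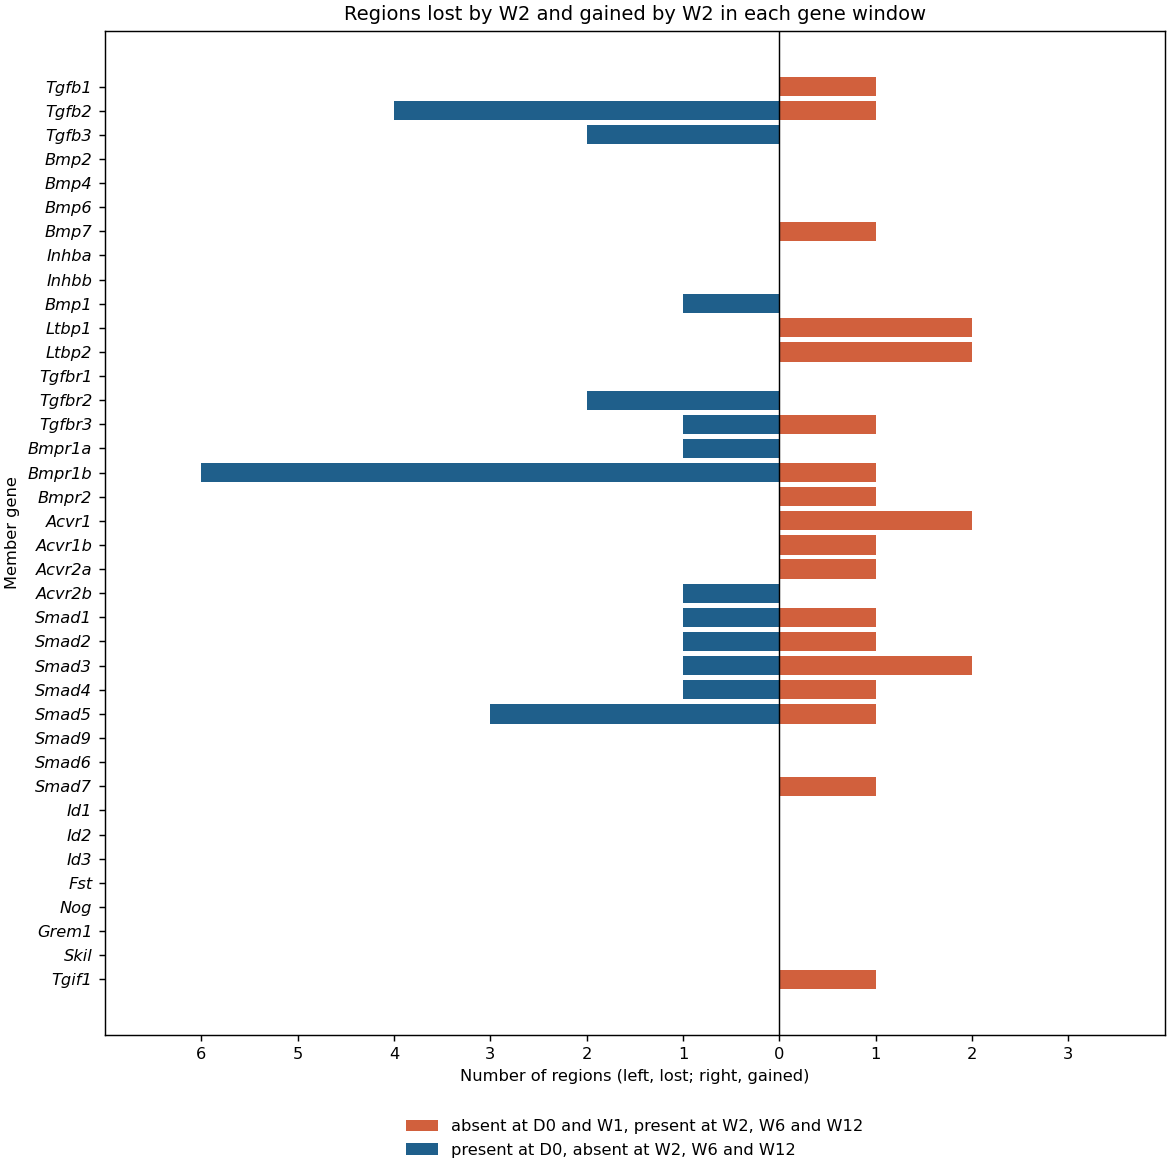
Bars to the left count the regions present at D0 and absent at W2, W6 and W12 in each gene window, and bars to the right those that appeared by W2 and stayed. Bmpr1b has 6 regions to the left and Tgfb2 has 4, and no gene has more than 2 to the right.

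Among the ligands, Tgfb2 lost and gained separate elements of the same locus. Its window (gene body on chromosome 1, 186622792 to 186705989, minus strand) held 20 regions. The highest region lost, chr1:186674253-186675076 in an intron 31035 bp from the nearest annotated start site of the gene, was listed at 10.8 (D0) and 19.2 (W1) and had no peak from W2 on. In culture it was listed only in SOX9+AFOS, at 5.15. The other 3 lost regions were lower, with D0 scores of 3.56 to 4.85. Another intron region, chr1:186641038-186641694, 64334 bp from the nearest annotated start site, had no peak in the first 2 skin lists and scores of 14.7, 4.41 and 3.16 in the last 3. The same region was absent in noDOX, ΔHMG-SOX9, ΔTA-SOX9 and AFOS and was listed at 48.2 in WT-SOX9, 21.8 in SOX9+AFOS and 18.2 in SOX9+ARID1a. In culture it was thus seen in the 3 arms with intact SOX9 and in none of the other 4 lists. The Tgfb2 start site stayed open in skin, with scores of 35.6, 31.8, 39.8, 20.9 and 22.0 from D0 to W12.

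Tgfb3 had 12 regions, and 2 of them were lost by W2. Both lay downstream, in introns of the neighbouring gene Ttll5. The higher one, chr12:86047031-86048226, was listed at 10.01 (D0) and 5.48 (W1) and in no other list. The other, chr12:86039160-86040184, was at 5.19 and then 8.91, and was absent afterwards in skin. The Tgfb3 start site kept scores of 10.01 to 17.5 through the skin lists. Tgfb1 held 9 regions, of which 5 were present in all skin lists, and its single gained region, downstream in the gene Ccdc97, was already at 38.7 in noDOX.

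Of the BMP ligands, Bmp4, long known to hold hair follicles at rest, had the lowest ratio of start-site scores of all 37 genes with a peak in both lists from D0 to W2 and from D0 to W6. In time order the Bmp4 scores ran 45.9, 38.4, 11.5, 6.41 and 15.2, and no culture list had a peak there. Bmp2 went from 23.4 at D0 and 18.8 at W1 to 13.2, 12.7 and 13.1 at its start site, and a region 12737 bp downstream of the start site was listed at 37.4, 43.4, 26.7, 19.8 and 30.3. In culture the Bmp2 start site was listed only in noDOX (4.33) and WT-SOX9 (6.41). The region chr2:133546970-133547644, 4852 bp upstream of Bmp2, had the highest score of all regions opened by WT-SOX9 in the family: it was at 49.1 in WT-SOX9, 7.81 in SOX9+ARID1a and 3.92 in SOX9+AFOS, and absent from noDOX, the other 3 arms and all skin lists. The highest Bmp2 region of skin and that of WT-SOX9 culture were thus different ones.

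Bmp7 kept an open start site in skin (25.8, 17.3, 14.6, 20.1 and 20.5 from D0 to W12). In culture the lists divided: 32.0 in noDOX, 35.6 in WT-SOX9, 39.1 in SOX9+AFOS and 12.2 in SOX9+ARID1a, against 4.67 in ΔHMG-SOX9, 3.55 in ΔTA-SOX9 and no peak in AFOS. Bmp6 had start-site scores of 34.4 to 50.5 in skin and in culture of 8.15 in noDOX and 18.6 in WT-SOX9. In the other arms they were 17.7 in ΔHMG-SOX9, 9.04 in ΔTA-SOX9, 14.1 in AFOS, 25.2 in SOX9+AFOS and 4.81 in SOX9+ARID1a. The inhibin beta genes, which encode activin subunits, had most regions at W6. Inhbb had 1, 2, 4, 8 and 4 from D0 to W12, but 1, 0, 1, 1 and 2 when the lists shared the D0 minimum of −log10 q. It had 1, 2, 3, 6 and 1 with lists of equal length and 1, 0, 2, 6 and 1 at a score of at least 5. Inhba had 1, 1, 3, 4 and 2, and 1 in each list with the shared minimum. With lists of equal length Inhba had 1, 1, 3, 2 and 1, and at a score of at least 5 it had 1, 1, 2, 2 and 1. Culture lists held 4 or 5 Inhbb regions each. The highest of these, 17506 bp downstream of the start site, was at 34.6 in noDOX and 15.2 in WT-SOX9 and in skin was listed only at W6 (4.80) and W12 (4.22).

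Ltbp1, which tethers latent TGF-beta to the matrix and had the most regions of the family, 38, went from 8 regions at D0 to 21 at W6 and W12. Its count was 8, 5, 10, 21 and 21 from D0 to W12. With the shared −log10 q minimum the counts were 8, 4, 5, 14 and 16, and with lists of equal length 8, 5, 9, 16 and 16. Of its 38 regions, 10 had a peak at W2. From W2 to W6, 11 of the others were gained (24.4% over all protein-coding windows) and none of the 10 was lost (10.1%). The highest region gained by W2 and kept, chr17:75349081-75349487 in an intron, had 3.09, 15.1 and 6.68 in the last 3 skin lists and was absent from all culture lists. In culture Ltbp1 had fewer regions in the lists with intact SOX9: it had 18 in noDOX, 13 in WT-SOX9, 14 in SOX9+ARID1a and 4 in SOX9+AFOS, against 18 in ΔHMG-SOX9 and 23 each in ΔTA-SOX9 and AFOS. Of the 18 regions open in noDOX, 14 were closed in SOX9+AFOS (31.1% over all protein-coding windows) and 0 in AFOS (16.3%).

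Ltbp2 held the region with the highest W2 score among those gained in skin and opened by WT-SOX9. The intron region chr12:84805307-84806098, 6240 bp upstream of the nearest annotated start site, had no peak in the first 2 skin lists and was then listed at 27.96, 15.7 and 11.9, with −log10 q of 55.0, 37.7 and 45.4. Culture without DOX had no peak there, whereas WT-SOX9 had 47.3, SOX9+AFOS 71.6 and SOX9+ARID1a 38.4. ΔHMG-SOX9 had 4.53, ΔTA-SOX9 4.20 and AFOS 8.02. The arms with intact SOX9 stood above the other 3 by more than 4 times in every pairing. A further Ltbp2 intron region, chr12:84823761-84824910, was at 8.76, 4.26 and 3.25 in the same skin lists and in culture was listed in WT-SOX9 (7.84) and SOX9+AFOS (20.1) only. The Ltbp2 start site was at 10.4 at D0 and W1 and at 27.2, 26.5 and 20.4 afterwards. Bmp1, a protease that processes latent complexes and procollagen, lost 1 coding-exon region in skin (4.83 at D0 and 8.37 at W1) that was listed at 37.2 in SOX9+AFOS and 7.30 in SOX9+ARID1a.

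The receptors held 195 regions, 138 of them with a skin peak. Of the 138, 11 were lost by W2 and not regained (7.97%, against 5.30% of the background) and 7 were gained by W2 and kept (5.07%, against 7.29%). All 6 lost Bmpr1b regions lay in introns, at D0 scores of 3.46 to 5.56 and thus near the minimum of the lists, and none was listed in culture. At a score of at least 5 Bmpr1b had 11, 12, 14, 12 and 9 regions from D0 to W12, without that limit 16, 15, 15, 15 and 12, and with the shared −log10 q minimum 16, 12, 10, 8 and 9. Its intron region chr3:142128256-142128651 was present in all skin lists (17.5 at D0, 11.2, 12.6, 5.05 and 5.47 afterwards) and in every culture list but WT-SOX9, with 16.8 in noDOX and 21.4 in SOX9+ARID1a. Tgfbr2, the type II TGF-beta receptor, lost a region 8064 bp upstream of its start site (9.51 at D0 and 8.68 at W1) and an intron region (6.36 and 5.84), and neither was listed in culture. It held 19 regions, 5 of them with a peak at W2, and 8 of the others were gained from W2 to W6 (24.4% over all protein-coding windows). The counts were 13 at W6 and 9 at W12. At a score of at least 5 they were 8, 7, 5, 7 and 8 from D0 to W12, as with lists of equal length. With the shared −log10 q minimum the counts from D0 to W12 were 8, 7, 2, 6 and 8. Its start-site score was 41.4 at D0, 29.0 at W1 and between 19.1 and 21.9 later.

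Tgfbr3 (betaglycan, the co-receptor that presents TGF-beta2) had 36 regions, 19 to 22 in each skin list. WT-SOX9 closed 10 of its 14 noDOX regions (25.0% over all protein-coding windows) and opened 4 of the other 22 (17.4%). The region chr5:107279172-107279912 was the single one in the family that was lost in skin from D0 to W2 and closed by WT-SOX9. It was at 13.1 at D0 and 11.7 at W1, absent at W2, and listed again at 8.66 at W6 and 10.5 at W12. In culture it was low, at 3.79 in noDOX, 5.43 in ΔHMG-SOX9, 3.48 in SOX9+AFOS and 6.10 in SOX9+ARID1a. Another Tgfbr3 intron region, chr5:107238583-107239408, was at 3.04 at D0 alone in skin and at 68.7 in SOX9+AFOS and 20.9 in SOX9+ARID1a.

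Acvr1, a type I BMP receptor, had 9, 6, 11, 17 and 16 regions from D0 to W12, and 9, 4, 6, 11 and 15 with the shared −log10 q minimum. Its 2 gained regions both lay in introns and held the SOX letters, as 2 of the 22 gained regions did (9.09%, background 10.96%): chr2:58417407-58418445 at 7.38, 14.001 and 4.63 from W2 to W12, absent from culture, and chr2:58522393-58523561 at 7.64, 8.71 and 8.48, which was at 6.43 in noDOX and 3.85 in WT-SOX9. A different Acvr1 intron region, chr2:58561547-58562150, was the highest of those closed by WT-SOX9. It was at 17.3 in noDOX, 18.5 in ΔHMG-SOX9, 12.7 in ΔTA-SOX9, 13.9 in AFOS and 9.44 in SOX9+ARID1a, and absent in WT-SOX9 and SOX9+AFOS. Acvr2a, a type II receptor for activins and BMPs, held 6 regions, 2 of them with a peak in noDOX and all 6 in WT-SOX9. All 4 without a noDOX peak were thus opened, at 3.21 to 8.28 (17.4% over all protein-coding windows). At a score of at least 5, noDOX had 2 and WT-SOX9 had 4, as with lists of equal length. Its gained skin region chr2:48877472-48878129 was at 7.91, 17.5 and 6.92 and was open in all 7 culture lists. Bmpr1a, the main type I BMP receptor of the epidermis, had 20 regions, 7 of them with a peak in noDOX. WT-SOX9 closed 3 of these 7 (25.0% over all protein-coding windows) and opened 7 of the others (17.4%). The Bmpr1a skin counts were 7, 7, 5, 7 and 4. The remaining receptors, Tgfbr1, Bmpr2, Acvr1b and Acvr2b, had 7, 18, 21 and 6 regions. Tgfbr1 had no region in either class, Bmpr2 and Acvr1b had 1 gained region each and Acvr2b had 1 lost region.

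**Figure D4:**
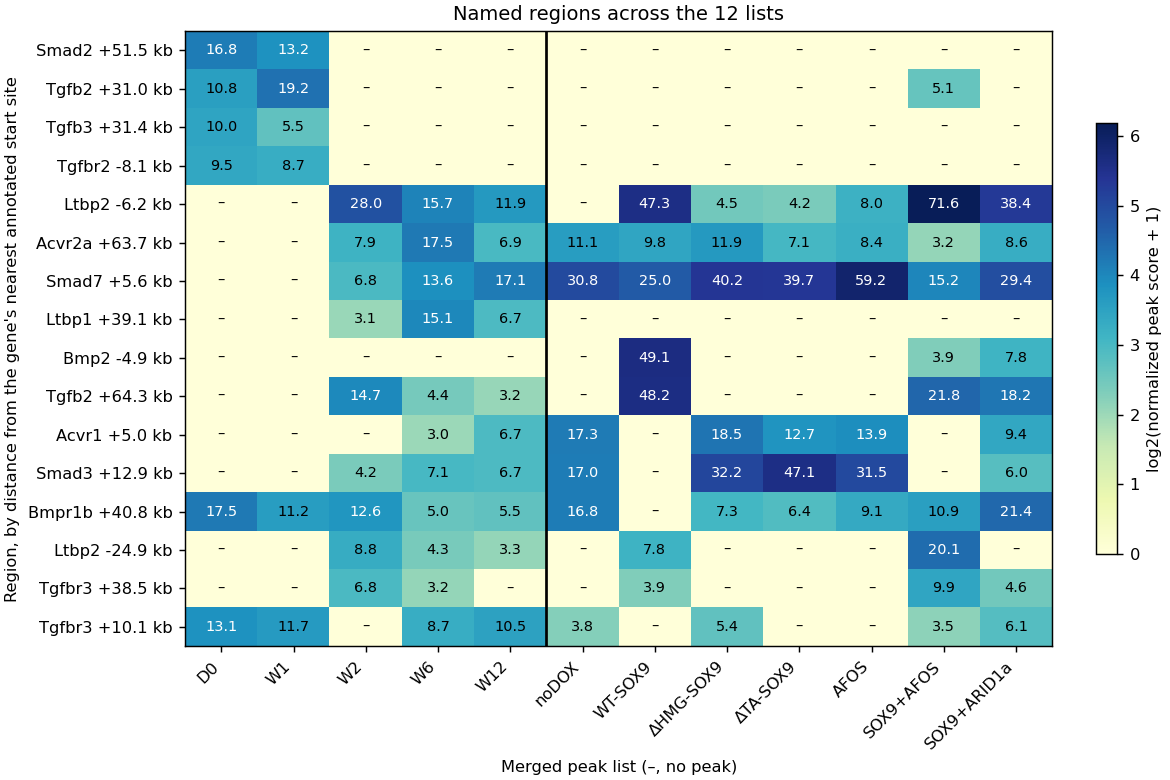
The plot gives the normalized peak score of 16 regions, named by gene and by distance from the nearest annotated start site of that gene, in the 12 lists, with a dash where there was no peak. The top 4 rows are seen at D0 and W1 only in skin, and the Ltbp2 row at 6.2 kb upstream and the Tgfb2 row at 64.3 kb are highest in the 3 arms with intact SOX9.

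The SMAD genes held 118 regions, 86 of them with a skin peak, and 7 of the 86 were in each of the 2 classes (8.14%, against 5.30% lost and 7.29% gained in the background). Smad5 lost 3 regions and gained 1, and its count went 8, 7, 8, 7 and 6. The highest of the lost ones was at 6.55 at D0 and 7.35 at W1, and none was listed in culture. The lost region with the highest D0 score of the family lay past the 3′ end of Smad2 on chromosome 18, 72368 bp from the 5′ end of the gene and 51456 bp from its nearest annotated start site, and was at 16.8 at D0 and 13.2 at W1, with no peak in any other list. Smad1 lost an intron region that was at 6.87 at D0 and 18.7 at W1. Smad3 had 33 regions, 1 lost and 2 gained. Its intron region chr9:63698641-63699411 had no peak in the first 2 skin lists and was at 4.21, 7.10 and 6.69 from W2 on, while in culture it was at 17.0 in noDOX, 32.2 in ΔHMG-SOX9, 47.1 in ΔTA-SOX9, 31.5 in AFOS and 6.002 in SOX9+ARID1a and absent in WT-SOX9 and SOX9+AFOS. This element was thus absent in D0 skin and open in noDOX culture. Smad4, the common partner, had 1 region of each class. Smad7, an inhibitory SMAD that TGF-beta induces, had 6, 4, 9, 11 and 11 regions from D0 to W12, and 6, 3, 3, 7 and 8 with the shared −log10 q minimum. Its gained intron region was at 6.83, 13.6 and 17.1 in skin and at 15.2 to 59.2 in all culture lists. Smad6, the inhibitory SMAD of the BMP branch, had 3 skin regions, 1 of them in all 5 lists. Smad9 had a start-site peak in the 5 skin lists (6.81 to 9.51) and in culture only in noDOX (3.29) and WT-SOX9 (5.64).

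The ID genes, which encode inhibitors of basic helix-loop-helix factors, had the highest share of steady regions of the 6 roles. Of 22 regions with a skin peak, 14 were in all 5 skin lists (63.6%, against 41.4% over all protein-coding windows). With the shared −log10 q minimum the counts were 6, 6, 5, 5 and 6 for Id1, 6, 6, 3, 3 and 5 for Id2 and 5, 6, 2, 3 and 4 for Id3. Id1 kept 6 or 7 regions in skin. Its start site was at 14.4 to 19.98 in skin, and in culture at 29.6 in noDOX and 73.3 in WT-SOX9, with 60.2 in ΔHMG-SOX9, 35.3 in ΔTA-SOX9, 25.9 in AFOS, 49.3 in SOX9+AFOS and 37.1 in SOX9+ARID1a. Id2 was highest at D0 (80.2) and at 45.0 to 58.5 later. Id3 had 5, 7, 3, 5 and 5 regions in time order, with start-site scores of 10.6 to 18.4 in skin.

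Among the antagonists, Fst encodes the activin trap follistatin. An intron region centred 1538 bp from the 5′ end of the gene, chr13:114457160-114457665, had scores of 8.202, 5.38, 28.2, 25.1 and 11.2 in time order. It was at 4.78 in noDOX, 3.69 in WT-SOX9 and 4.21 in ΔHMG-SOX9 and absent from the other 4 culture lists. Nog, the BMP antagonist noggin, held 1 region, its promoter, which was open in all 12 lists at 7.997 to 14.2, and was the single gene of the family without any gained or lost region. Grem1, the BMP antagonist gremlin, had no peak in skin, in noDOX or in any arm with intact SOX9. It had 3 regions upstream in ΔTA-SOX9 (11.3, 3.26 and 18.97), 2 in AFOS (8.56 and 5.03) and 1 in ΔHMG-SOX9 (5.10). Skil and Tgif1, which encode repressors of SMAD complexes, had start-site peaks in all 12 lists. Skil was at 53.0 in noDOX, 87.7 in WT-SOX9, 90.3 in ΔTA-SOX9 and 28.2 in AFOS.

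A peak within 1 kb of an annotated start site was present in all 5 skin lists for 37 of 38 genes (97.4%), Grem1 being the exception, and in all 7 culture lists for 31 (81.6%). Over all protein-coding genes with such a peak in any list, the shares were 83.4% and 70.5%, and over all protein-coding genes 55.7% and 47.1%. From D0 to W2 the highest score within 1 kb was at least 2 times higher for 2 of 37 genes (Fst and Ltbp2) and at least 2 times lower for 3 (Bmp4, Inhbb and Ltbp1), where over all protein-coding genes 2.24% were higher and 2.23% lower. For Fst and Ltbp1 the highest peak lay in different regions in the 2 lists. The Fst promoter region itself was at 9.92 and 10.5, and the higher W2 score is that of the intron region above. From D0 to W6, Ltbp2 was higher, as was Fst through the same intron region, and Acvr1, Bmp4 and Tgfbr2 were lower (3.23% higher and 3.51% lower over all genes). From noDOX to WT-SOX9, 4 of 36 genes were at least 2 times higher (Bmp6, Id1, Smad7 and Tgfb3) and 0 lower, with 2.97% and 2.43% over all genes. From noDOX to ΔHMG-SOX9, 3 of 34 were at least 2 times higher, namely Bmp6, Id1 and Tgfb3 (1.67% over all genes). Another 3 were lower there, namely Acvr2b, Bmp7 and Tgfb2 (2.25% over all genes). The Tgfb3 start site was at 12.9 in noDOX, 26.5 in WT-SOX9 and 26.1 in ΔHMG-SOX9. In SOX9+ARID1a, 16 of 32 were at least 2 times lower than in noDOX, where 34.7% of all genes with a peak in both lists were, so that start-site scores in that list were lower in general. The AFOS list was lower in general too, with lower scores than noDOX for 8239 of 11424 genes. There 6 of 33 member genes were at least 2 times lower (15.0% over all genes) and 0 higher (2.33%).

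**Figure D5:**
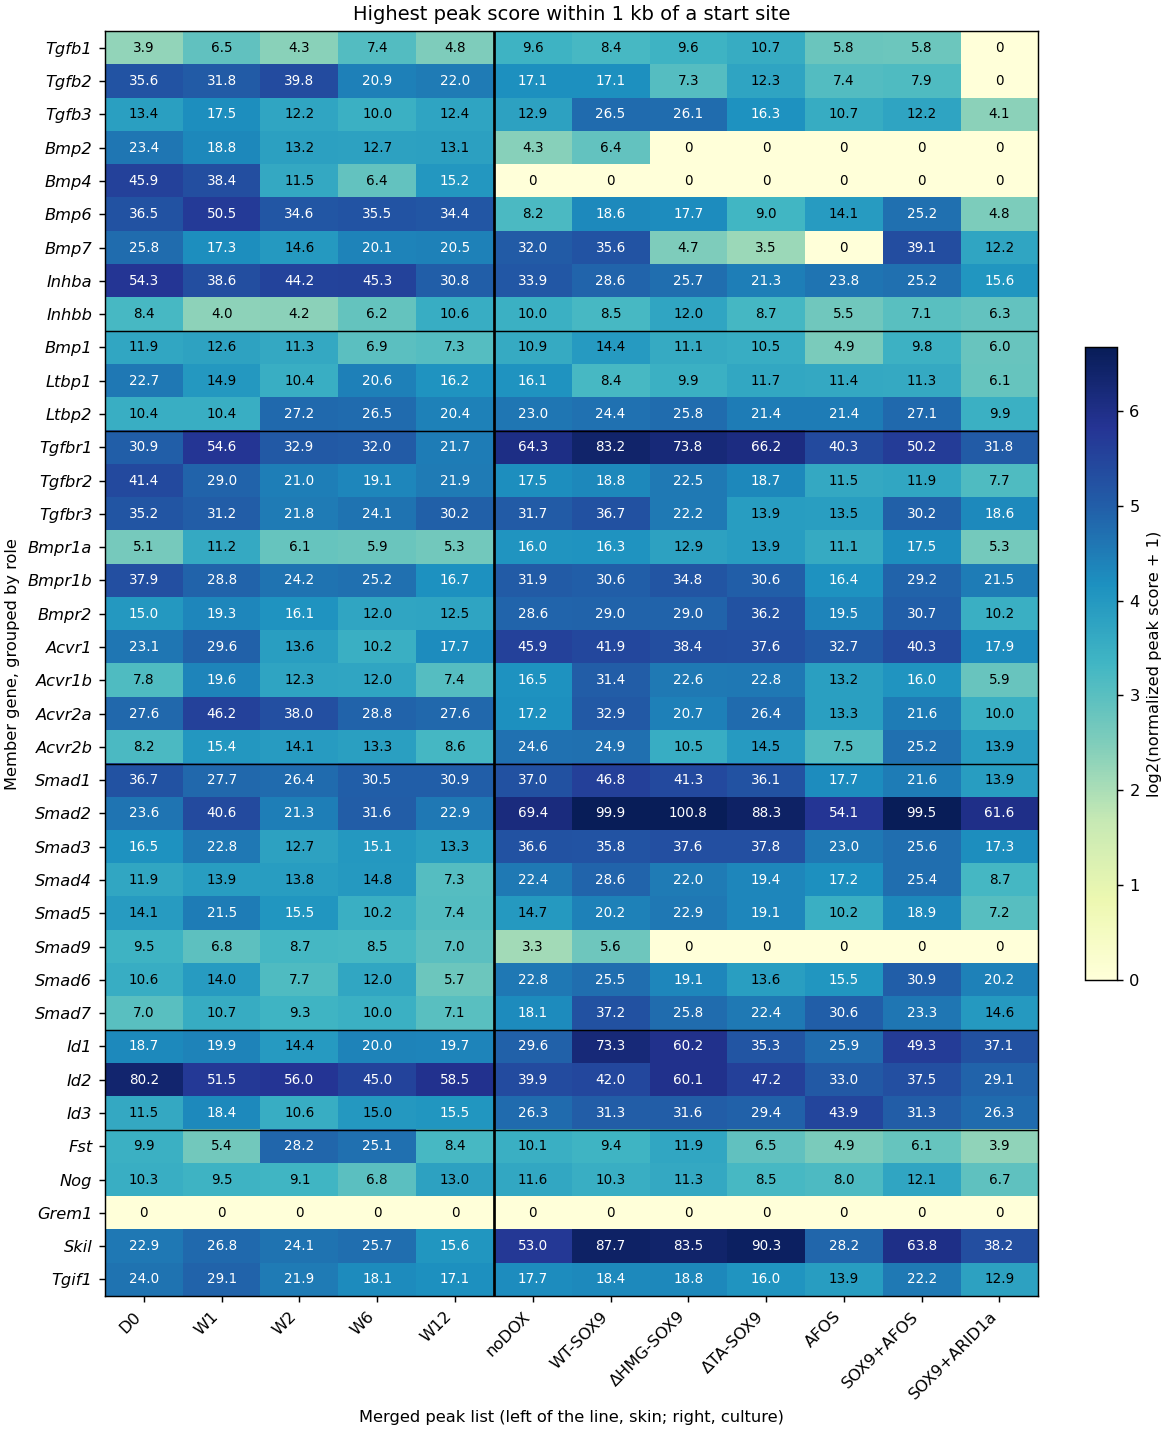
Each cell gives the highest normalized peak score within 1 kb of an annotated start site of 1 gene in 1 list, coloured on a log2 scale, with 0 for no peak. Bmp4 is at 45.9 at D0 and 6.41 at W6 and has no peak in culture, and Bmp7 is at 32.0 or above in noDOX, WT-SOX9 and SOX9+AFOS and below 5 in ΔHMG-SOX9 and ΔTA-SOX9.

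In culture the 6 arms share the noDOX list, so that their values are given side by side and not compared with each other as sets. WT-SOX9 opened 51 of 302 regions (16.9%, background 17.4%) and closed 60 of 226 (26.5%, background 25.0%). ΔHMG-SOX9 opened 27 (8.94%, background 10.6%) and closed 34 (15.0%, background 16.2%). ΔTA-SOX9 opened 45 (14.9%, background 17.5%) and closed 52 (23.0%, background 17.8%). The list labelled AFOS had 39 opened regions (12.9%, interval 9.59 to 17.2%, background 18.8%) and 46 closed ones (20.4%, background 16.3%). SOX9+AFOS opened 60 (19.9%, background 18.3%) and closed 75 (33.2%, background 31.1%), and SOX9+ARID1a opened 48 (15.9%, background 17.1%) and closed 41 (18.1%, background 19.0%). By role, WT-SOX9 closed 30 of 81 receptor regions, 12 of 33 regions of Bmp1, Ltbp1 and Ltbp2, 9 of 52 SMAD regions, 6 of 33 ligand regions, 3 of 12 antagonist and corepressor regions and 0 of 15 ID gene regions.

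Some elements changed in both skin and culture. Of 36 regions gained in skin from D0 to W2 and absent in noDOX, 10 were opened by WT-SOX9 (27.8%, interval 15.8 to 44.0%), where the background had 1699 of 7636 (22.2%). Of 6 regions lost in skin and present in noDOX, 1 was closed by WT-SOX9 (16.7%, interval 3.01 to 56.4%), where the background had 856 of 1855 (46.1%). The 10 shared gains were the Ltbp2 and Tgfb2 regions above, a second Ltbp2 region, 2 in Acvr1b, 2 in Tgfbr3 and 1 each in Smad7, Bmpr1b and Smad3. The Smad7 one was at 4.76 at W2 and 27.4 in WT-SOX9 and the Bmpr1b one at 6.50 and 16.0. Of 37 regions lost in skin and absent in noDOX, 0 were opened by WT-SOX9, where the background had 214 of 5924 (3.61%), so that 0 is within counting error of it (interval up to 9.41%).

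Matches to the letters describe the windows and are not sites. SOX letters were in 23 of 528 member regions (4.36%) and 5.50% of background regions, and in 6 of 51 regions opened by WT-SOX9 (11.8%), where 15.5% of all such regions held them. AP1 letters were in 15 of 60 regions closed by WT-SOX9 (25.0%, background 28.7%) and in 2 of 51 opened by it (3.92%, background 11.1%). GATA letters were in 26 of 162 regions present in all skin lists (16.0%, background 7.40%) and in 4 of 25 lost regions (16.0%, background 22.3%) and 0 of 22 gained ones (background 8.11%). RUNX letters were in 24 of 80 regions gained from W2 to W6 (30.0%, background 18.7%), where AP1 letters were in 9 (11.3%, background 21.6%). RUNX letters were also above the background in regions opened by WT-SOX9 (27.5%, background 18.9%), closed by it (23.3%, background 16.7%), gained by W2 and kept (6 of 22, background 19.03%) and lost by W2 (5 of 25, background 11.5%), and below it in regions present in all skin lists (9.26%, background 11.6%). The SMAD palindrome was in 3 member regions (0.568%, background 0.249%), in the Smad7 promoter, an Acvr1 intron and the Bmpr1b intron region chr3:141857223-141857528, which was lost by W2 (4.30 at D0 and 3.41 at W1). The GC-rich SMAD1/5 letters were in 24 regions (4.55%, background 4.30%).

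A further 51 genes of the same pathways, listed with earlier results of these data known, had 414 regions outside the member windows. Of these, 134 of 312 with a skin peak were in all 5 skin lists (42.9%, background 41.4%), 14 were lost by W2 and not regained (4.49%, background 5.30%) and 24 were gained by W2 and kept (7.69%, background 7.29%), and WT-SOX9 opened 34 of 248 (13.7%, background 17.4%) and closed 29 of 166 (17.5%, interval 12.4 to 24.0%, background 25.0%). At the edge of the 20 kb rule, the outermost regions inside were 1 of Tgfbr2 at 19949 bp from the gene body, open in all 5 skin lists with a highest score of 11.8, and 1 of Smad5 at 19932 bp, open in all 12 lists with a highest score of 47.1. Just outside lay a region 20340 bp from Smad1, listed in AFOS alone at 3.46, and a region 20712 bp from Id1, listed at W6 and in 3 culture arms with a highest score of 15.8.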

How the data were processed

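Peak lists were taken as deposited. By the study's methods, the authors aligned reads to GRCm38 with the PEPATAC pipeline, called peaks with MACS2 and pooled the 2 replicates of a group; the submitters' processing notes name Bowtie2 2.2.9, SAMtools 1.9, Picard 2.3.0, MACS2 2.1.1 and deepTools 2.5.4. The deposited skin lists hold a normalized peak score, the fold enrichment as a ratio over background, and −log10 q values, and the deposited culture lists hold the score alone. The lists hold peaks and not reads, so the depth per sample is unknown; the lists differ in peak number and in their lowest −log10 q, which do not rank them alike. Peaks of the 12 lists were merged with Python 3.11.15 (pandas 2.3.3), and genes and start sites were taken from the GENCODE vM21 annotation of GRCm38, protein-coding genes only. A region counted as gained or opened when it had a peak in the later or DOX list and none in the earlier or noDOX list. The members, gene lists and naming rules were chosen with earlier results of these data known. Regions were named by rule: the highest 4 of each skin class, the highest 3 opened and closed by WT-SOX9, and up to 4 in each direction shared by skin and culture, with the promoters of all members, and a gene was described in full when its window held 2 or more regions of those classes or when all or none of its regions had changed. Other regions were named after their values were seen. Sequences were read from the RefSeq GRCm38.p6 genome. The counting code was tested on simulated lists and recovered the known count in 25 of 25 comparisons. Alternatives were a score of at least 5, lists of equal length, a common −log10 q minimum, a 25% coverage rule, separate unions, windows of 5 kb, and leaving out Ltbp1, the W1 list or the W12 list.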

Additional observations from a re-analysis of the deposited data

Results flagged for a closer look

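In the family, 7 regions were gained in skin from D0 to W2 and closed by WT-SOX9 in culture, so that the same region went opposite ways in the 2 systems. The difference between the systems was not tested, each being represented by 1 list per group. The 7 were among 15 regions gained in skin and present in noDOX (46.7%, interval 24.8 to 69.9%), where the background had 749 of 3194 (23.5%). With the D0 minimum of −log10 q shared by the skin lists, 1 of the 7 was still gained from D0 to W2. The 7 lay in the windows of Bmpr1b (2), Bmpr2, Inhbb, Smad4, Tgfbr3 and Smad3. The Smad3 intron region was at 4.21 at W2 in skin and at 17.0 in noDOX. The others were at 3.56 to 6.51 in noDOX and at 3.82 to 9.84 at W2.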

How the results depend on the processing

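Of 168 shares recomputed under the alternatives, 135 stayed within the Wilson interval of the reported share and 33 moved outside it. All 25 stayed within it with windows of 5 kb, with peaks required to cover 25% of the region, and without Ltbp1. The share over all windows under the same setting stands in parentheses. With skin lists held to the common −log10 q minimum of 14.5, gains were 6.30% (5.86%) and losses 22.7% (19.4%) from D0 to W1, 7.94% (8.91%) and 37.2% (37.8%) from W1 to W2, and 3.36% (5.94%) and 41.6% (41.3%) from D0 to W2. Under it 16.4% (14.2%) were gained from W2 to W6, 19.9% (20.7%) were gained and 5.95% (6.73%) lost from W6 to W12, 36.0% (37.4%) were in all 5 lists, 15.6% (13.9%) were lost by W2 and not regained, and 0.318% (3.23%) were gained by W2 and kept. With a score of at least 5, 12.1% (11.4%) were lost from D0 to W1, 23.0% (20.4%) gained and 14.2% (12.2%) lost between W2 and W6, and 10.5% (16.1%) opened by ΔTA-SOX9. With lists of equal length, 15.7% (14.5%) were gained and 16.9% (15.7%) lost between W2 and W6, 9.48% (9.36%) lost by W2 and not regained, 8.14% (13.9%) opened in AFOS and 24.8% (22.4%) opened by SOX9+AFOS. Separate unions for skin and culture shrink the number of regions that could be gained. Gains were then 20.7% (22.6%) from D0 to W1, 39.4% (43.1%) from W1 to W2, 54.4% (50.9%) from W2 to W6, 34.8% (41.9%) from W6 to W12 and 31.4% (37.4%) from D0 to W2, and 34.2% (31.4%) were opened by WT-SOX9, 18.1% (19.1%) by ΔHMG-SOX9, 30.2% (31.4%) by ΔTA-SOX9, 26.2% (33.8%) in AFOS, 40.9% (33.1%) by SOX9+AFOS and 32.9% (30.9%) by SOX9+ARID1a. Without the W12 list 10.4% (10.3%) were gained by W2 and kept. The cause of the shifts under the score, length and −log10 q settings was not tested. Of the 3 shares whose interval leaves out the background, the share opened in AFOS was below its background under all 6 alternatives run for it, the share closed by ΔTA-SOX9 above it under all 6, and the share lost from D0 to W1 above it under all 7. The 3 were picked out of 25 comparisons, and the alternatives re-cut the same lists, so the sides are not independent support. Over the further pathway genes, 17.3% were opened in AFOS (interval 13.1 to 22.5%, background 18.8%). ΔTA-SOX9 closed 17.5% of their regions (interval 12.4 to 24.0%, background 17.8%). From D0 to W1, 13.0% were lost (interval 8.98 to 18.5%, background 11.7%). The background was thus inside each of these intervals. No paired analysis was possible because the replicates of each group were pooled before peaks were called, and leaving out replicates was not run for the same reason.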
